A study of Homo sapiens with 18 samples.

Results

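Rh30, an established line of alveolar rhabdomyosarcoma, was compared with and without knockdown of DNAJC17, a J-domain co-chaperone of the spliceosome. The 6 libraries described here were chosen by their labels from the 18 of the series, 3 of parental Rh30 with the sgRNA against DNAJC17 (sgDNAJC17) and 3 of parental Rh30 with the non-targeting control sgRNA (sgCTL). All 6 carried dCas9-KRAB, a catalytically dead Cas9 fused to a transcriptional repressor, and were lysed after 72 hours of puromycin selection. The labels set no other genotype or treatment between them. In the paper's fitness assays the control sgRNA came with GFP and the sgRNA against DNAJC17 with BFP. Whether these libraries differed in that way is not given. Beside them stand 3 libraries of Rh30 that stably expressed a DNAJC17 cDNA without its C-terminal RNA recognition motif (ΔRRM) and also received sgDNAJC17, and 6 parental libraries of the Ewing sarcoma line ES8 with the same 2 sgRNAs. The study's methods name hygromycin selection for such cDNA constructs. The series holds no ΔRRM library with sgCTL, so effects of the cDNA and other differences of that line cannot be told apart. Replicates were plated as triplicates of each line, so the p-values measure the spread between these libraries, which may be technical, and a single line stands for the tumour type. In bulk RNA, fewer cells of a type and less RNA per cell cannot be told apart.

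J-domain proteins hand client proteins to HSP70 chaperones and stimulate the HSP70 ATPase. DNAJC17 differs from most of the family in that it also holds an RNA recognition motif and associates with spliceosome components, among them the PRP19 complex, which is needed to activate the spliceosome. Alveolar rhabdomyosarcoma resembles muscle precursors that are halted before differentiation, and in most cases it is driven by a PAX3-FOXO1 fusion that keeps a myogenic programme switched on.

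The libraries held between 40098375 and 48245989 counts on genes, the 10 most abundant genes took 6.97 to 7.45% of them and mitochondrial genes 0.556 to 0.678%. The markers that define the labelled cell type were present: in each of the 6 libraries MYOD1, a master regulator of muscle, had at least 32919 counts, MYOG, its partner in differentiation, at least 3380, and DES, the muscle intermediate filament, at least 39602. Levels below are CPM, in which each library's counts are set to the same sum after its composition is allowed for. This does not divide by gene length, so levels are compared between libraries and never between genes. Where 3 levels are given they stand in the order of replicates A, B and C, and log2 fold changes are sgDNAJC17 minus sgCTL with their standard error (SE). Most genes named below were picked by a small p, or by a large change with separate groups. For those, a lack of overlap between the groups followed largely from the choice and is a description. Its share over all genes is not given.

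The targeted gene checked the labels. DNAJC17 (ENSG00000104129, GRCh38 chr15:40765155-40807478, minus strand) was at 10.97, 11.2 and 10.1 CPM in the sgCTL libraries and at 2.36, 2.10 and 2.603 CPM in the sgDNAJC17 libraries. No sgDNAJC17 library came near the lowest sgCTL library, and the group means of 10.8 ± 0.568 and 2.35 ± 0.254 (SD, n = 3 each) differed 4.57-fold, a log2 fold change of -2.19 (SE 0.115, adjusted p = 5.13e-08, edgeR). In the ΔRRM libraries, where the cDNA is counted as well, DNAJC17 reads reached 324 ± 11.6 CPM (SD, n = 3), so counts on the whole gene do not tell the knockdown of the endogenous gene there.

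ZFYVE19, which encodes a zinc finger protein of the abscission checkpoint, lies on the opposite strand with its start 392 bases from that of DNAJC17, and the annotated spans of both genes share 393 bases. It was at 11.3, 12.1 and 12.3 CPM with sgCTL and at 6.32, 7.55 and 6.43 CPM with sgDNAJC17. The groups did not overlap, and ZFYVE19 fell by 0.81 on the log2 scale (SE 0.0975, adjusted p = 7.79e-05). It was also at 4.49 CPM in the ΔRRM libraries, where the sgCTL mean on the same scale was 11.4. The strand used in counting is not given in the sources used here, so reads from the shared bases cannot be assigned to either gene. Within 50 kb, C15orf62, an open reading frame inside the span of DNAJC17, had a log2 fold change of 0.21 (SE 0.399, adjusted p = 0.729). The remaining neighbours SUMO2P15, GCHFR, PPP1R14D, SPINT1-AS1 and SPINT1 had between 0 and 9 counts a library and were not tested.

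Of 15391 genes tested, 118 rose by 2-fold or more at an adjusted p under 0.05, which is 0.767% of those tested, and 121 fell by as much, 0.786%. Without the fold threshold 2473 genes rose (16.1%) and 2501 fell (16.2%), and the counts of list members below stand against these shares. Most of these changes were small: the median absolute log2 fold change among them was 0.348, and 3850 of them were under 0.5. Many of the 2-fold changes sat at low levels, since 103 of the 118 that rose and 85 of the 121 that fell had a mean under 100 counts. By annotated class, 53 of the 118 were protein-coding, 40 were lncRNAs and 11 were small nucleolar RNAs (snoRNAs), and 83 of the 121 were protein-coding and 26 were lncRNAs. The median over all tested genes was 0.0045.

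**Figure D1:**
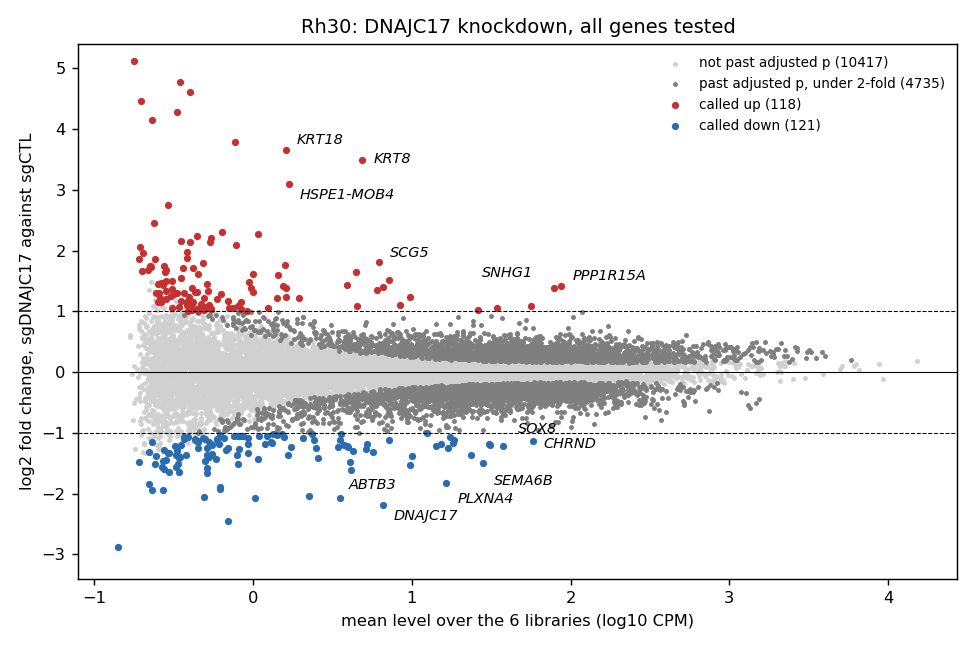
Log2 fold change in Rh30, sgDNAJC17 minus sgCTL, against the mean level over the 6 libraries in CPM on a log axis, with each point a tested gene and genes that changed 2-fold at an adjusted p under 0.05 in colour (118 higher, 121 lower). The 2-fold changes gather at low levels, PPP1R15A and SNHG1 are the labelled genes that rose at a higher level, and 2 genes lie beyond the vertical axis.

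Genes of the rhabdomyosarcoma programme fell more often than they rose. Of 27 listed genes around PAX3-FOXO1 and rhabdomyosarcoma, 23 were tested, 11 fell and 2 rose, with a median of -0.25 against 0.0045 over all genes and 16.2% of all genes lower. The list holds the fusion partners, myogenic regulators, known targets of the fusion and other genes of this tumour, such as GLI1 and CDK4. SOX8, a transcription factor of muscle satellite cells, was at 52.3, 52.9 and 52.5 CPM with sgCTL and at 23.5, 22.8 and 21.8 CPM with sgDNAJC17, a fall of 1.21 (SE 0.064, adjusted p = 5.13e-08) with no overlap between the groups. FGFR4, the receptor tyrosine kinase that marks this tumour, was at 507, 488 and 469 CPM against 331, 305 and 290.2 CPM (log2 fold change -0.66, SE 0.0649, adjusted p = 1.58e-05). NOS1, the neuronal nitric oxide synthase, went from 36.8 ± 2.59 to 19.1 ± 2.3 CPM and FGF8, a secreted growth factor, from 9.24 ± 1.19 to 4.76 ± 0.709 CPM (SD, n = 3). IGF2, the growth factor that rhabdomyosarcomas overexpress, fell by 0.75 (SE 0.08, adjusted p = 3.18e-05), and GLI1, the transcription factor of the hedgehog pathway, fell by 0.66 (SE 0.0849, adjusted p = 0.000128).

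Of the fusion partners, PAX3 rose and FOXO1 did not pass the test. PAX3, whose 5′ part gives the fusion its DNA-binding domains, was at 18.3, 14.9 and 17.3 CPM with sgCTL and at 20.4, 21.4 and 21.3 CPM with sgDNAJC17, and rose by 0.32 (SE 0.0841, adjusted p = 0.00965, and 0.0629 without sgCTL replicate B). FOXO1, the forkhead partner, was at 11.6 ± 0.684 and 10.6 ± 1.24 CPM (SD, n = 3; log2 fold change -0.13, SE 0.0992, adjusted p = 0.365). Counts per gene do not separate fusion transcripts from those of the intact alleles. The other listed gene that rose was GREM1, a secreted inhibitor of bone morphogenetic proteins, at 70.8 ± 1.36 and 95.0 ± 1.63 CPM (SD, n = 3; log2 fold change 0.42, adjusted p = 0.000192).

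Among 47 skeletal muscle differentiation genes, 37 were tested, 13 fell and 3 rose, with a median of -0.12 and 16.2% of all genes lower. The 3 that fell by 2-fold, as 0.786% of all genes did, were the acetylcholine receptor subunits CHRND and CHRNG, which lie next to each other on chromosome 2, and MYMX, the micropeptide of myoblast fusion. CHRND was at 81.9, 77.4 and 78.3 CPM with sgCTL and at 37.6, 36.4 and 34.2 CPM with sgDNAJC17 (log2 fold change -1.13, SE 0.0642, adjusted p = 9.29e-08). CHRNG was at 5.81, 5.39 and 4.59 CPM against 2.15, 2.28 and 2.45 CPM (-1.20, SE 0.136, adjusted p = 5.06e-05), and MYMX was at 23.9, 24.8 and 26.4 CPM against 11.9, 10.9 and 10.8 CPM (-1.16, SE 0.0791, adjusted p = 5.89e-07). In all 3 the highest sgDNAJC17 library was below the lowest sgCTL library. RYR1, the calcium release channel of muscle, fell by 0.92 (SE 0.095, adjusted p = 2.33e-05), NEB, the giant protein of the thin filament, by 0.72 (SE 0.134, adjusted p = 0.00145), and CDH15, the muscle cadherin, by 0.50 (SE 0.0704, adjusted p = 0.000244). The contractile genes were mixed: the slow troponin TNNT1 fell by 0.33 (adjusted p = 0.000914), whereas the slow troponins TNNC1 and TNNI1 rose by 0.43 and 0.22 (adjusted p = 0.00472 and 0.0126), the call of TNNI1 being lost without sgCTL replicate A or B or sgDNAJC17 replicate B (0.0646, 0.0512 and 0.0738). MYF5, the early myogenic regulator, also rose, from 15.6, 13.8 and 13.8 CPM to 20.1, 22.8 and 20.8 CPM (0.56, SE 0.083, adjusted p = 0.00034).

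**Figure D2:**
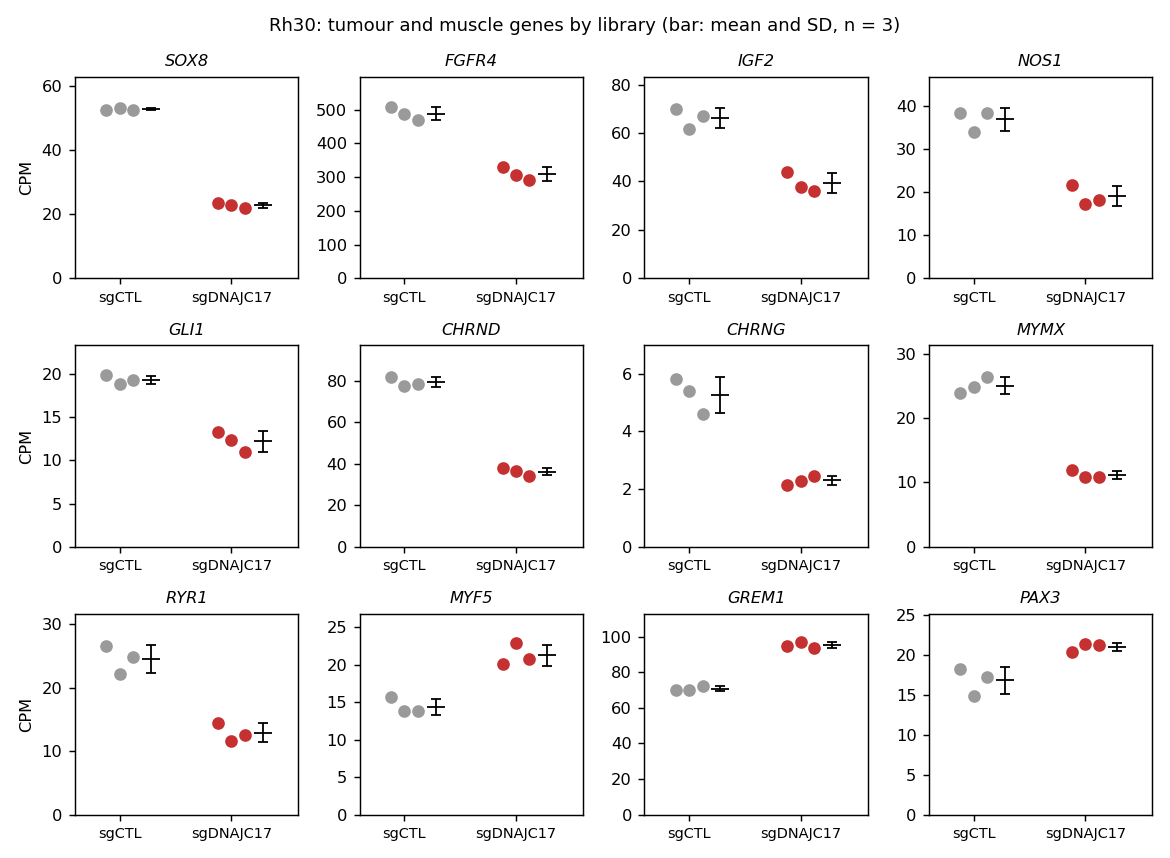
Level of genes of the rhabdomyosarcoma and muscle lists in each Rh30 library in CPM from 0, with a point for each of the 3 sgCTL (grey) and 3 sgDNAJC17 (red) libraries and, beside them, the mean and SD of the group. The sgDNAJC17 points of SOX8 (21.8 to 23.5 CPM) and CHRND (34.2 to 37.6 CPM) lie below every sgCTL point.

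Among the protein-coding genes with the largest falls were a plexin and a pair of semaphorins. PLXNA4, a plexin that receives semaphorin signals, was at 26.7, 25.3 and 25.3 CPM with sgCTL and at 8.28, 6.29 and 7.23 CPM with sgDNAJC17 (-1.82, SE 0.0956, adjusted p = 5.13e-08). The transmembrane semaphorin SEMA6B was at 43.6, 42.7 and 38.7 CPM against 16.2, 15.5 and 12.6 CPM (-1.49, SE 0.0907, adjusted p = 2.1e-07), and its relative SEMA6A at 8.96, 6.87 and 8.83 CPM against 3.94, 2.59 and 3.25 CPM (-1.32, SE 0.15, adjusted p = 5.23e-05). None of these 3 overlapped between the groups. ABTB3, an ankyrin repeat and BTB domain protein, fell by 2.07 (SE 0.175, adjusted p = 4.06e-06), from 5.72 ± 0.717 to 1.35 ± 0.342 CPM (SD, n = 3). FXYD6, a regulator of the sodium pump, went from 3.64 ± 0.238 to 0.863 ± 0.279 CPM (-2.05, SE 0.198, adjusted p = 1.38e-05), and ADGRA1, an adhesion G protein-coupled receptor, from 6.31 ± 0.502 to 2.05 ± 0.19 CPM (-1.62, SE 0.129, adjusted p = 2.37e-06). The others of this rank were the centrosomal CEP170B (-1.53), the nucleotide exchange factor MCF2L (-1.49), the endoplasmic reticulum protein TMCC3 (-1.41), KIAA1671 (-1.29) and C10orf71, which is expressed in striated muscle (-1.27), each with an adjusted p of 2.55e-05 or less.

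Rises at moderate or high level were few. Only 9 protein-coding genes with a mean of at least 100 counts rose by 2-fold with separate groups. PPP1R15A, which restores translation by recruiting the phosphatase of eIF2α, was at 49.3, 49.0 and 44.6 CPM with sgCTL and at 133, 125 and 125 CPM with sgDNAJC17, a log2 fold change of 1.42 (SE 0.0647, adjusted p = 3.21e-08). SCG5, a chaperone of prohormone convertase, went from 2.75 ± 0.184 to 9.68 ± 0.895 CPM (SD, n = 3; 1.81, SE 0.116, adjusted p = 3.42e-07), and the chemokine CXCL8 from 3.72 ± 0.0477 to 10.7 ± 1.05 CPM (1.52, SE 0.107, adjusted p = 7.26e-07). These 3 genes did not overlap between the groups. RSRP1, an arginine and serine rich protein, rose by 1.40 (SE 0.106, adjusted p = 1.46e-06), NR1D1, the circadian repressor, by 1.23 (SE 0.116, adjusted p = 1.09e-05), and BIRC3, an inhibitor of apoptosis in the NF-κB pathway, by 1.11 (SE 0.096, adjusted p = 4.64e-06). SETD4, a lysine methyltransferase, rose by 1.09 (SE 0.129, adjusted p = 7.19e-05) and DKK1, a secreted Wnt inhibitor, by 1.03 (SE 0.0851, adjusted p = 3.48e-06). The remaining gene of the 9 was the keratin KRT8.

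PPP1R15A belongs to the integrated stress response, in which phosphorylation of eIF2α lowers general translation while the transcription factor ATF4 is made. Of 26 listed genes of this response 24 were tested, 11 rose and 3 fell, with a median of 0.16 against 0.0045 over all genes and 16.1% of all genes higher. ATF4 was at 223, 230.1 and 221 CPM with sgCTL and at 308, 338 and 336 CPM with sgDNAJC17 (0.54, SE 0.0602, adjusted p = 4.5e-05). DDIT3, which encodes the pro-apoptotic factor CHOP, was at 37.3, 40.98 and 37.1 CPM against 49.6, 55.5 and 57.6 CPM (0.49, SE 0.0732, adjusted p = 0.000332), and MAP1LC3B, the autophagosome protein LC3B, rose by 0.47 (SE 0.0634, adjusted p = 0.000182). ATF4, DDIT3 and PPP1R15A were each higher in all 3 sgDNAJC17 libraries than in any sgCTL library. The 3 that fell were the mTORC1 inhibitor DDIT4 (-0.41, adjusted p = 0.000537), the cell cycle inhibitor CDKN1A (-0.37, adjusted p = 0.000524) and ATF5, a relative of ATF4 (-0.26, adjusted p = 0.0245). The call of ATF5 was lost without sgCTL replicate A or B or sgDNAJC17 replicate B or C (adjusted p = 0.0783, 0.103, 0.117 and 0.0789).

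Amino acid genes driven by ATF4 gave 7 that rose and 1 that fell of 20 tested from 22 listed, with a median of 0.079. SLC3A2, the heavy chain of amino acid exchangers, was at 218, 209 and 208 CPM against 331, 332 and 289 CPM (0.58, SE 0.0662, adjusted p = 5.06e-05), and its partner SLC7A11, the cystine carrier, rose by 0.62 (SE 0.12, adjusted p = 0.00181). ASNS, asparagine synthetase, rose by 0.45 (SE 0.0847, adjusted p = 0.00146), and PCK2, the mitochondrial phosphoenolpyruvate carboxykinase, fell by 0.40 (SE 0.0594, adjusted p = 0.000333). All 20 cytosolic aminoacyl-tRNA synthetases listed were tested, 7 rose and 3 fell (median 0.076), with FARSB for phenylalanine at 0.29 (adjusted p = 0.0026), QARS1 for glutamine at -0.46 (adjusted p = 0.000265) and VARS1 for valine at -0.41 (adjusted p = 0.00133).

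Endoplasmic reticulum genes of the unfolded protein response gave 10 that rose and 1 that fell of 24 tested (median 0.081). DNAJB9, a J-domain chaperone of the reticulum, went from 9.3 ± 1.04 to 14.4 ± 3.1 CPM (SD, n = 3; 0.63, SE 0.135, adjusted p = 0.00341). SEC61B, a subunit of the translocon, rose by 0.44 (SE 0.0683, adjusted p = 0.000442) and XBP1, a transcription factor of the response, by 0.30 (SE 0.0615, adjusted p = 0.00251). SYVN1, a ubiquitin ligase of the reticulum, fell by 0.33 (SE 0.102, adjusted p = 0.0229, and 0.0528 to 0.0876 without sgCTL replicate A or B or sgDNAJC17 replicate B or C). Apart from DNAJB9, each of these moved by less than 0.5 on the log2 scale.

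Heat shock genes, cytosolic and mitochondrial, moved in the same range. Of 24 heat shock response genes 21 were tested, 13 rose and 2 fell, with a median of 0.21. The 2 that fell were HSPA1A, given below, and HSF1, the transcription factor of the response (-0.30, SE 0.0694, adjusted p = 0.00522, edgeR). CHORDC1, a co-chaperone of HSP90, was at 31.9, 40.5 and 39.4 CPM against 53.1, 53.6 and 58.0 CPM (0.56, SE 0.0847, adjusted p = 0.00039), and HSP90AA1, the inducible HSP90, at 2262, 2374 and 2378 CPM against 2858, 2943 and 3106 CPM (0.34, SE 0.0606, adjusted p = 0.001). BAG3, which couples HSP70 to autophagy, rose by 0.40 (SE 0.0648, adjusted p = 0.000606), DNAJA1, a cytosolic J-domain protein, by 0.38 (SE 0.0637, adjusted p = 0.000792) and HSPD1, the mitochondrial HSP60, by 0.30 (SE 0.0625, adjusted p = 0.00298). HSPA1A, the inducible HSP70 and the member of this list that changed 2-fold, had 14, 37 and 18 counts with sgCTL and 13, 7 and 4 with sgDNAJC17 (-1.42, SE 0.463, adjusted p = 0.0305). At this depth its groups lay close, its near-identical copy HSPA1B shares reads with it, and the call was lost with DESeq2 (adjusted p = 0.0573) and without sgCTL replicate B (0.197), sgDNAJC17 replicate B (0.0935) or sgDNAJC17 replicate C (0.123).

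In the family of DNAJC17 itself, the other HSP70 and J-domain genes, 41 of 42 were tested, 11 rose and 6 fell (median 0.082). DNAJB5, a cytosolic J-domain protein, was at 39.7, 40.2 and 42.5 CPM against 28.3, 26.8 and 28.1 CPM (-0.56, SE 0.0653, adjusted p = 6.72e-05). DNAJC25, a membrane J-domain protein, rose by 0.49 (SE 0.0815, adjusted p = 0.000675) and HSPA13, an HSP70 of microsomes, by 0.41 (SE 0.0717, adjusted p = 0.00103). DNAJA4, a relative of DNAJA1, changed by 2-fold at 6 to 9 counts with sgCTL and 13 to 19 with sgDNAJC17 (1.22, SE 0.42, adjusted p = 0.0387), and this call was lost without any of the 3 sgCTL libraries (adjusted p = 0.0581, 0.129 and 0.124) or without sgDNAJC17 replicate B (0.0831) or C (0.155). Across the 41 genes the log2 fold changes ran from -0.56 to 1.22, against -2.19 for DNAJC17.

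Immediate early genes, induced within minutes by growth factors and stress, gave 7 that rose and 1 that fell of 28 tested from 29 (median 0.10). FOSL1, a subunit of the AP-1 factor, was at 74.3, 74.8 and 68.5 CPM against 128, 122 and 111 CPM (0.73, SE 0.0682, adjusted p = 1.01e-05), and CCN1, a matricellular protein, at 427, 424 and 398 CPM against 590.4, 615 and 569 CPM (0.51, SE 0.06, adjusted p = 7.26e-05). Interferon-stimulated genes gave 7 that rose and 2 that fell of 25 tested from 30 (median 0.15). B2M, the invariant chain of MHC class I, rose by 0.46 (SE 0.087, adjusted p = 0.00157) and STAT2, a transducer of interferon signals, fell by 0.46 (SE 0.0771, adjusted p = 0.000734).

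Some epithelial markers differed between the groups at low level. Of 25 epithelial markers 16 were tested, 6 rose and 1 fell, 5 of them by 2-fold (median 0.43). KRT19, CDH1 and TFF1 had at most 7 counts in any sgCTL library, so they passed the filter only through the sgDNAJC17 group and had to differ. KRT18, with 9 counts in sgCTL replicate A, lay at the edge of the filter and also passed only through the sgDNAJC17 group. The count and median are a description. KRT8, a keratin of simple epithelia, was at 0.949, 0.837 and 0.615 CPM with sgCTL and at 10.1, 9.78 and 7.11 CPM with sgDNAJC17 (3.49, SE 0.185, adjusted p = 5.13e-08). Its partner keratin KRT18 had 9, 12 and 11 counts against 154, 144 and 84 (3.66, SE 0.283, adjusted p = 1.85e-06), and KRT19, another keratin of simple epithelia, 2, 7 and 5 counts against 98, 40 and 51 (adjusted p = 3.95e-05). CDH1, the epithelial cadherin, had 2, 1 and 1 counts against 53, 19 and 29, and TFF1, a secreted trefoil peptide, 1, 1 and 1 against 33, 25 and 28 (adjusted p = 8.38e-05 and 2.66e-05). All 5 were near 0 in every sgCTL library and present in every sgDNAJC17 library, though KRT8 and KRT18 share 1084 bases on opposite strands.

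These genes were also present in the ΔRRM libraries, where DNAJC17 reads were abundant. There KRT8 averaged 8.48 CPM, against 8.61 with sgDNAJC17 and 0.765 with sgCTL on the scale of all 9 Rh30 libraries, and KRT18 averaged 2.78 against 2.88 and 0.226 CPM. CDH1 had 33, 21 and 14 counts there and TFF1 26, 21 and 21. The whole list summed to 328 to 339 CPM in the sgCTL libraries, 337 to 366 in the sgDNAJC17 libraries and 343 to 375 in the ΔRRM libraries. Most of its counts in the sgCTL libraries came from CLDN4, a tight junction protein, PERP, LAMB3 and KRT7, a keratin. PERP and LAMB3 did not pass the test (adjusted p = 0.18 and 0.236, edgeR). KRT7 was at 53.8 ± 2.17 and 66.3 ± 4.23 CPM (0.30, SE 0.0669, adjusted p = 0.00405) and CLDN4 at 91.9 ± 4.98 and 76.2 ± 3.36 CPM (SD, n = 3; -0.27, SE 0.0644, adjusted p = 0.00578). In the sgCTL libraries 3 of the 25 markers were at 0 (CLDN7, OVOL1 and RAB25) and in the sgDNAJC17 libraries none, and EPCAM, which defines epithelia, had 9, 5 and 3 counts against 12, 1 and 10. Whether these transcripts came from Rh30 or from other cells in the cultures was not tested, nor was the part of epithelial RNA in other results.

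Of 28 neural and secretory genes 8 were tested, SCG5 rose and TUBB3, the neuronal tubulin, fell (-0.21, SE 0.065, adjusted p = 0.0218, and 0.0584 to 0.0892 without any 1 of the sgCTL libraries or sgDNAJC17 replicate C), with a median of -0.0068. The list summed to 811 to 881 CPM with sgCTL and 780 to 883 with sgDNAJC17, and 2 of the 28 were at 0 in all 6 libraries. Of 14 markers of Ewing sarcoma, the tumour of the other line, 2 were tested and CD99, a surface glycoprotein, rose by 0.17 (SE 0.0607, adjusted p = 0.0465), with none lower by edgeR, at an unadjusted p under 0.05 or by DESeq2. CD99 carried the list's sum, 308 to 337 CPM with sgCTL and 352 to 379 with sgDNAJC17, and its call was lost in 9 of the alternatives tried, among them without any 1 of the sgCTL libraries (adjusted p = 0.114, 0.0735 and 0.2) or sgDNAJC17 replicate B or C (0.202 and 0.0556).

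Splicing genes rose more often than they fell. Of 32 genes of the PRP19 complex, the U5 and U4/U6 particles and spliceosome disassembly, all tested, 15 rose and 3 fell, with a median of 0.16. The 3 that fell were SNRNP200 (-0.29, adjusted p = 0.0167, edgeR), XAB2 (-0.27, adjusted p = 0.0148) and PRPF31 (-0.24, adjusted p = 0.00842). PRPF19, for which the PRP19 complex is named, and PRPF8, of the U5 particle, did not pass the test (adjusted p = 0.757 and 0.0518). BUD31, a component of the activated spliceosome, was at 48.1, 52.6 and 50.3 CPM against 67.5, 77.2 and 84.6 CPM (0.60, SE 0.0793, adjusted p = 0.000154), and PRPF3, of the U4/U6 particle, at 48.0, 47.7 and 51.0 CPM against 69.5, 72.5 and 76.9 CPM (0.58, SE 0.0644, adjusted p = 4.67e-05). RBM22, which contacts U6 RNA at the catalytic centre, rose by 0.49 (SE 0.0619, adjusted p = 0.000117) and BCAS2, a core member of the PRP19 complex, by 0.47 (SE 0.0809, adjusted p = 0.000907). In BUD31, PRPF3, RBM22 and BCAS2, which were named for their small p, the groups did not overlap.

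The serine and arginine rich splicing factors and their kinases gave 14 that rose and 2 that fell of 23 tested from 24 (median 0.19). SRSF11 was at 92.4, 98.1 and 102 CPM against 135, 145 and 154 CPM (0.57, SE 0.0662, adjusted p = 6.32e-05), and SRSF3 rose by 0.45 (SE 0.0733, adjusted p = 0.000632). The 2 that fell were kinases that phosphorylate these factors, the muscle kinase SRPK3 (-0.47, SE 0.0615, adjusted p = 0.000149) and CLK2 (-0.41, SE 0.0728, adjusted p = 0.00103). The kinases were mixed, since CLK1 rose by 0.50 (SE 0.12, adjusted p = 0.00594, edgeR) and CLK3 by 0.19 (SE 0.0683, adjusted p = 0.0485). SRPK1, SRPK2 and CLK4 did not pass the test. All 27 hnRNP genes were tested, 11 rose and 1 fell (median 0.094): HNRNPL, a regulator of exon inclusion, rose by 0.44 (SE 0.0567, adjusted p = 0.000132), PTBP2, the neuronal polypyrimidine tract protein, by 0.51 (SE 0.0842, adjusted p = 0.000714), and HNRNPUL2 fell by 0.38 (SE 0.0903, adjusted p = 0.00616). Among the genes named from both lists SRSF11 moved most.

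For 7 genes in which the study described skipped exons, a list chosen on these same samples and so not independent, total gene counts moved little. PPIA, a peptidyl-prolyl isomerase, rose by 0.36 (SE 0.0782, adjusted p = 0.00365), GINS1, a subunit of the replicative helicase, by 0.26 (adjusted p = 0.00803), CCT7, a chaperonin subunit, by 0.17 (adjusted p = 0.0423) and MAPKAP1, a subunit of mTORC2, by 0.16 (adjusted p = 0.0389). The calls of CCT7 and MAPKAP1 were lost without any 1 of the sgCTL libraries or without sgDNAJC17 replicate B or C, at adjusted p from 0.0802 to 0.178 for CCT7 and from 0.084 to 0.14 for MAPKAP1. By edgeR none of the 7 fell, nor at an unadjusted p under 0.05 or by DESeq2, and the median was 0.16. Counts per gene do not show exon use.

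The list with the largest share of changed genes was that of snoRNA hosts, non-coding genes whose introns hold snoRNAs, which guide the chemical modification of ribosomal RNA. Their spliced transcripts are short-lived and many of their start sites lie in pyrimidine tracts. Of 24 hosts, all tested, 17 rose, 3 of them by 2-fold, and 1 fell, with a median of 0.38 against 16.1% of all genes higher. RefSeq starts (GRCh38.p14) are shown for some of the hosts that rose, and for SNHG19 and SNHG4, which did not rise. Those shown hold every matched host that starts with a C and 4 pyrimidines, but only some of the others. Lower case marks 10 bases before the annotated start and capitals the first 20 transcribed bases.
SNHG1 (chr11:62855866-62855895, minus strand): gagattcgttCTCATTTTTCTACTGCTCGT
SNHG17 (chr20:38435309-38435338, minus strand): gtgtggcctcAGTCCTTCGCCGTCCCTCGC
ZFAS1 (chr20:49278632-49278661, plus strand): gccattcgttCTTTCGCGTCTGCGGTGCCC
GAS5 (chr1:173869026-173869055, minus strand): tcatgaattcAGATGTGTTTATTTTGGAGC
SNHG5 (chr6:85678714-85678743, minus strand): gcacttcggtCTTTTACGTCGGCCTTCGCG
SNHG12 (chr1:28581854-28581883, minus strand): gcttcagcgcCCTTTCTCCCCGCCGCATTC
SNHG32 (chr6:31834906-31834935, plus strand): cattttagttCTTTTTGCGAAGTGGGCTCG
SNHG19 (chr16:2155339-2155368, minus strand): ccgcccctgtCTTTTCGGGGTCGAGTCCGA
SNHG4 (chr5:139274091-139274120, plus strand): ctcccggctgCCCTTTCCCCTCCGGCCTCT
Of the 24 hosts 21 were matched to a start in the table, and 6 of the 21 (SNHG4, SNHG5, SNHG12, SNHG19, SNHG32 and ZFAS1) began with a C followed by 4 pyrimidines (C or T) on the transcribed strand, against 4.04% of 27305 annotated starts. Of these 6, SNHG5, SNHG12, SNHG32 and ZFAS1 rose, SNHG19 fell and SNHG4 did not pass the test, whereas SNHG1 and SNHG17, with the largest rises of those shown, do not have this start in RefSeq. GAS5 does not have it either. SNHG3, SNHG7, SNHG8, SNHG10, SNHG11, SNHG16, SNHG29 and EPB41L4A-AS1, which are not shown, also rose without it.

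SNHG1, the host of a cluster of box C/D snoRNAs, was at 41.9, 45.5 and 43.5 CPM with sgCTL and at 103, 115 and 124 CPM with sgDNAJC17 (1.39, SE 0.0743, adjusted p = 5.13e-08). SNHG15 was at 33.7, 39.1 and 34.3 CPM against 67.6, 79.6 and 81.8 CPM (1.09, SE 0.0832, adjusted p = 1.56e-06), and SNHG17, the host of the SNORA71 family, at 23.5, 22.9 and 20.5 CPM against 45.7, 46.1 and 46.7 CPM (1.05, SE 0.0699, adjusted p = 5.21e-07). In these 3 every sgDNAJC17 library was well above every sgCTL library. ZFAS1 rose by 0.92 (SE 0.11, adjusted p = 7.67e-05), GAS5, which accumulates when growth stops, by 0.64 (SE 0.0836, adjusted p = 0.000151) and SNHG16 by 0.41 (SE 0.0581, adjusted p = 0.000271). SNHG12 rose by 0.54 (adjusted p = 0.000887), SNHG5 by 0.40 (adjusted p = 0.00284) and SNHG32 by 0.39 (adjusted p = 0.0025). SNHG19 fell by 0.22 (SE 0.0786, adjusted p = 0.0432), a call lost in 8 of the alternatives tried (adjusted p from 0.0886 to 0.153 without any 1 of the sgCTL libraries or sgDNAJC17 replicate A or B), and SNHG4 was at 5.47 ± 0.488 and 5.34 ± 0.154 CPM (SD, n = 3; -0.03, adjusted p = 0.855). SNHG1 and SLC3A2, the amino acid carrier described above, start 188 bases apart on opposite strands, and both rose.

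Few of the snoRNAs themselves, which poly-A selection retains poorly, could be tested. Of 929 annotated snoRNAs 31 passed the filter, 17 rose, 11 of them by 2-fold, with a median of 0.91, and none fell by edgeR, at an unadjusted p under 0.05 or by DESeq2, which called 12 higher. A snoRNA that passes this filter only through the group where it is high had to differ, so the count is a description, and their mean levels of 9.83 to 308 counts (median 23.2) were low. SNORA65, an H/ACA snoRNA inside the ribosomal protein gene RPL12, was at 0.532, 0.515 and 0.417 CPM against 1.06, 1.89 and 1.58 CPM (1.61, SE 0.273, adjusted p = 0.000796). Others were chosen after their values were seen: SNORD14E had 2, 2 and 0 counts against 18, 42 and 18, and SNORD62A 11, 9 and 9 against 53, 51 and 31 (2.299, SE 0.329, adjusted p = 0.000271). SNORD15B, in the ribosomal protein gene RPS3, had 12, 11 and 3 counts against 41, 32 and 40 (2.20, SE 0.383, adjusted p = 0.000942).

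All 17 snoRNAs that rose lay inside a tested gene on the same strand. They are genes of few counts chosen for having risen, so their fold changes and those of the holding genes stand side by side as a description and are not compared. The 2 snoRNAs inside TBRG4, a mitochondrial RNA-binding protein, rose by 1.24 (SNORA5C, SE 0.196, adjusted p = 0.000493) and 1.59 (SNORA5A, SE 0.295, adjusted p = 0.00137), while TBRG4 was at 0.097 (adjusted p = 0.218). SNORA71B rose by 1.41 (SE 0.241, adjusted p = 0.000834) within SNHG17, and SNORD17 by 0.57 (SE 0.1, adjusted p = 0.00103) within SNX5, a sorting nexin whose own change was 0.16 (adjusted p = 0.0472). Counts at this resolution do not separate mature snoRNAs from reads of the surrounding intron. In the ΔRRM libraries SNORD62A averaged 0.17 CPM against 1.02 with sgDNAJC17 and 0.206 with sgCTL on the scale of all 9 libraries.

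**Figure D3:**
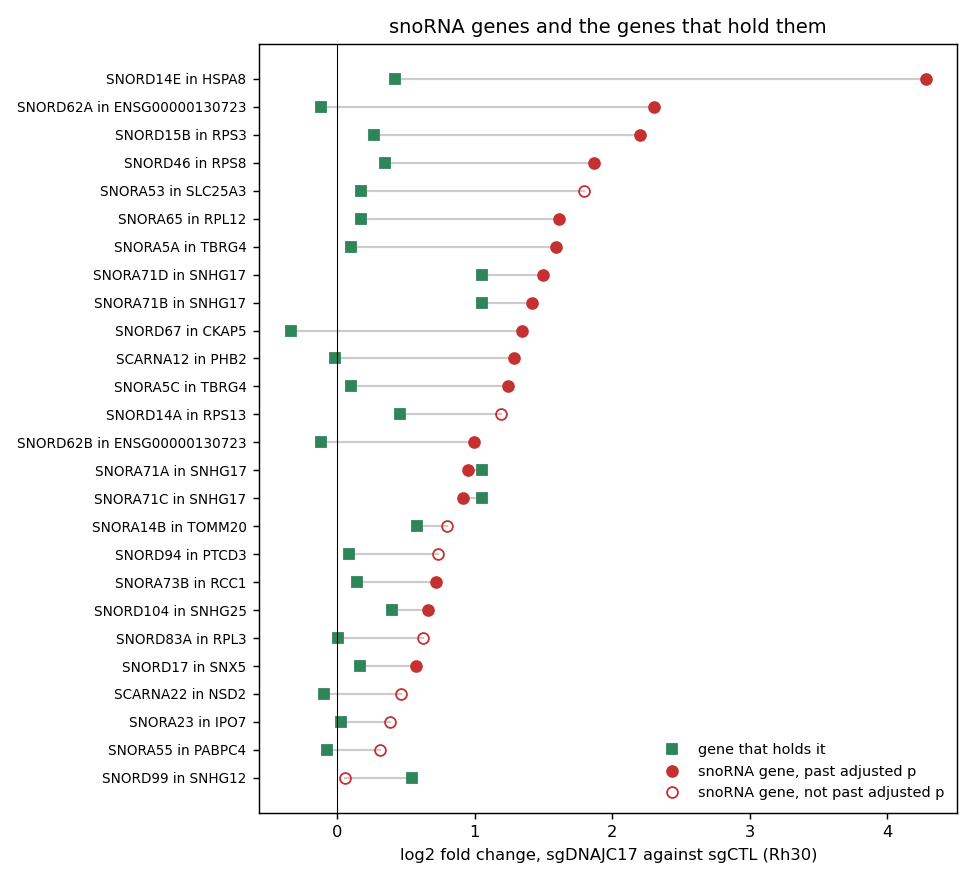
Log2 fold change, sgDNAJC17 minus sgCTL, of the 26 tested snoRNA genes inside a tested gene on the same strand (circle, filled where it passed the adjusted p). The gene that holds each is a square, joined by a line. Tested snoRNAs without such a gene are not drawn, among them SNORD3A (-0.27), SNORA26 (-0.17) and SNORA11 (-0.10), which did not pass the test. The 17 filled circles were chosen by their rise, so their distance from the squares is a description.

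Read-through genes join 2 neighbouring genes in one annotated transcript. Of 122 listed genes of this kind 45 were tested, 10 rose, 5 by 2-fold, and 1 fell, with a median of 0.25. Over all genes 16.1% were higher and 0.767% rose by 2-fold, and DESeq2 called 6 of the 45 higher and 1 lower. Members of few sgCTL counts, such as INO80B-WBP1 (15, 17 and 8) and NDUFC2-KCTD14, passed the filter only through the sgDNAJC17 group. The counts of rises and the median are therefore a description. HSPE1-MOB4, which runs from a mitochondrial co-chaperonin gene into a kinase adaptor gene, was at 0.231, 0.386 and 0.439 CPM with sgCTL and at 2.82, 2.95 and 3.35 CPM with sgDNAJC17 (3.09, SE 0.229, adjusted p = 1.23e-06), while its parts HSPE1 and MOB4 rose by 0.29 and 0.31 (adjusted p = 0.00618 and 0.01). INO80B-WBP1, which joins a chromatin remodelling subunit and a WW-domain ligand, was at 0.347, 0.365 and 0.176 CPM against 1.147, 1.16 and 1.53 CPM (2.10, SE 0.307, adjusted p = 0.000313), with INO80B at 0.15 (adjusted p = 0.402) and WBP1 at 0.056 (adjusted p = 0.608). In the ΔRRM libraries these 2 averaged 0.678 and 0.22 CPM, against 2.91 and 1.22 with sgDNAJC17 and 0.337 and 0.283 with sgCTL on the scale of all 9 libraries. In 3 of the 10 the ΔRRM mean lay below the lowest sgDNAJC17 library, and NME1-NME2, which joins 2 nucleoside diphosphate kinase genes, was at 9.56, 8.33 and 11.4 CPM there against 6.36, 6.83 and 6.63 CPM with sgDNAJC17. The authors' assignment of reads that fit both a joined and a single transcript could split these genes, and HSPE1-MOB4 also lies opposite HSPD1, so their levels are uncertain.

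The other non-coding genes with the largest rises both overlapped coding genes. ENSG00000277581, inside the helicase gene DHX35 on the same strand, went from 0.713 ± 0.284 to 2.46 ± 0.666 CPM (SD, n = 3; 1.77, SE 0.278, adjusted p = 0.000485). ENSG00000264577, opposite the ribosomal protein gene RPL23A, went from 2.15 ± 0.179 to 6.74 ± 0.721 CPM (1.64, SE 0.13, adjusted p = 2.37e-06). Among those that fell were the lncRNA LINC00837 (-2.45, SE 0.331, adjusted p = 0.000182), the pseudogene MPHOSPH6P1 (-1.51, SE 0.284, adjusted p = 0.00152), opposite CDC42, and the pseudogene CYP4F26P (-1.28, SE 0.309, adjusted p = 0.00645). CEROX1, a lncRNA that regulates mitochondrial complex I, was at 14.5, 14.2 and 15.1 CPM against 6.3, 5.35 and 5.16 CPM (-1.38, SE 0.0975, adjusted p = 7.8e-07) and starts 212 bases from SOX8 on the opposite strand, and both fell, as did LMF1, which overlaps CEROX1 on the same strand (-0.93, adjusted p = 0.000445). IGLC2, an immunoglobulin light chain segment with near-identical copies, was at 31.96, 33.6 and 36.0 CPM against 11.99, 12.8 and 14.5 CPM (-1.37, SE 0.0847, adjusted p = 2.38e-07), so its counts are uncertain.

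Of 44 mitosis genes, all tested, 6 rose and 9 fell (median -0.047), shares near the 16.1% higher and 16.2% lower of all genes. ESPL1, the separase, was at 52.3, 45.0 and 47.0 CPM against 33.4, 27.5 and 27.6 CPM (-0.70, SE 0.086, adjusted p = 9.34e-05), and CDC25B, the phosphatase of mitotic entry, fell by 0.50 (SE 0.0688, adjusted p = 0.000215). MAD2L1, of the spindle checkpoint, rose by 0.52 (SE 0.0783, adjusted p = 0.00039) and CKS2, a CDK partner, by 0.46 (SE 0.0948, adjusted p = 0.00245). DNA replication genes gave 4 that rose and 11 that fell of 41 (median -0.089). POLD1, the catalytic subunit of polymerase delta, was at 161, 156 and 155 CPM against 111, 95.8 and 87.2 CPM (-0.69, SE 0.0776, adjusted p = 5.06e-05), the S-phase factors E2F1 and E2F2 fell by 0.59 and 0.65 (adjusted p = 5.75e-05 and 0.000164), LIG1, DNA ligase I, fell by 0.51 (adjusted p = 0.000179), and ORC6, of the origin complex, rose by 0.40 (adjusted p = 0.00327). The p53 targets gave 3 that rose and 5 that fell of 23 tested from 26 (median -0.038), also near the 16.1% and 16.2% of all genes. PLK2, a polo-like kinase, rose by 0.61 (SE 0.0597, adjusted p = 1.42e-05), GADD45A, of the DNA damage response, by 0.45 (adjusted p = 0.00025), and BTG2, an antiproliferative factor, fell by 0.47 (adjusted p = 0.000264), as CDKN1A did.

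Cholesterol genes gave 3 that rose and 6 that fell of 24 (median -0.024), with the sterol isomerase EBP at 0.46 (adjusted p = 0.000719). Glycolysis and hypoxia genes gave 4 and 7 of 30 tested from 31 (median -0.025), with the hypoxia-induced prolyl hydroxylase EGLN3 at -0.52 (adjusted p = 8.34e-05) and the phosphofructokinase PFKL at -0.47 (adjusted p = 0.000485). Extracellular matrix genes gave 3 and 11 of 32 tested from 37 (median -0.20). TNC, tenascin, was at 1645, 1472 and 1557 CPM against 1215, 1028 and 973 CPM (-0.54, SE 0.0798, adjusted p = 0.000332), CDH2, the neural cadherin, fell by 0.69 (adjusted p = 0.000118) and COL4A1, of basement membranes, by 0.56 (adjusted p = 0.000459). The nonsense-mediated decay list, which mixes decay factors with targets of decay, gave 7 that rose and 4 that fell of 19 (median 0.031). The 4 that fell were the factors UPF1 (-0.28), UPF2 (-0.43), SMG1 (-0.34) and SMG6 (-0.33). The factors SMG8, MAGOH and RBM8A rose, as did the targets GADD45A, GAS5 and ZFAS1. GADD45B, also a known target of decay, was at 35.9, 34.1 and 33.2 CPM against 60.9, 61.8 and 57.6 CPM (0.81, SE 0.0644, adjusted p = 2.37e-06).

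**Figure D4:**
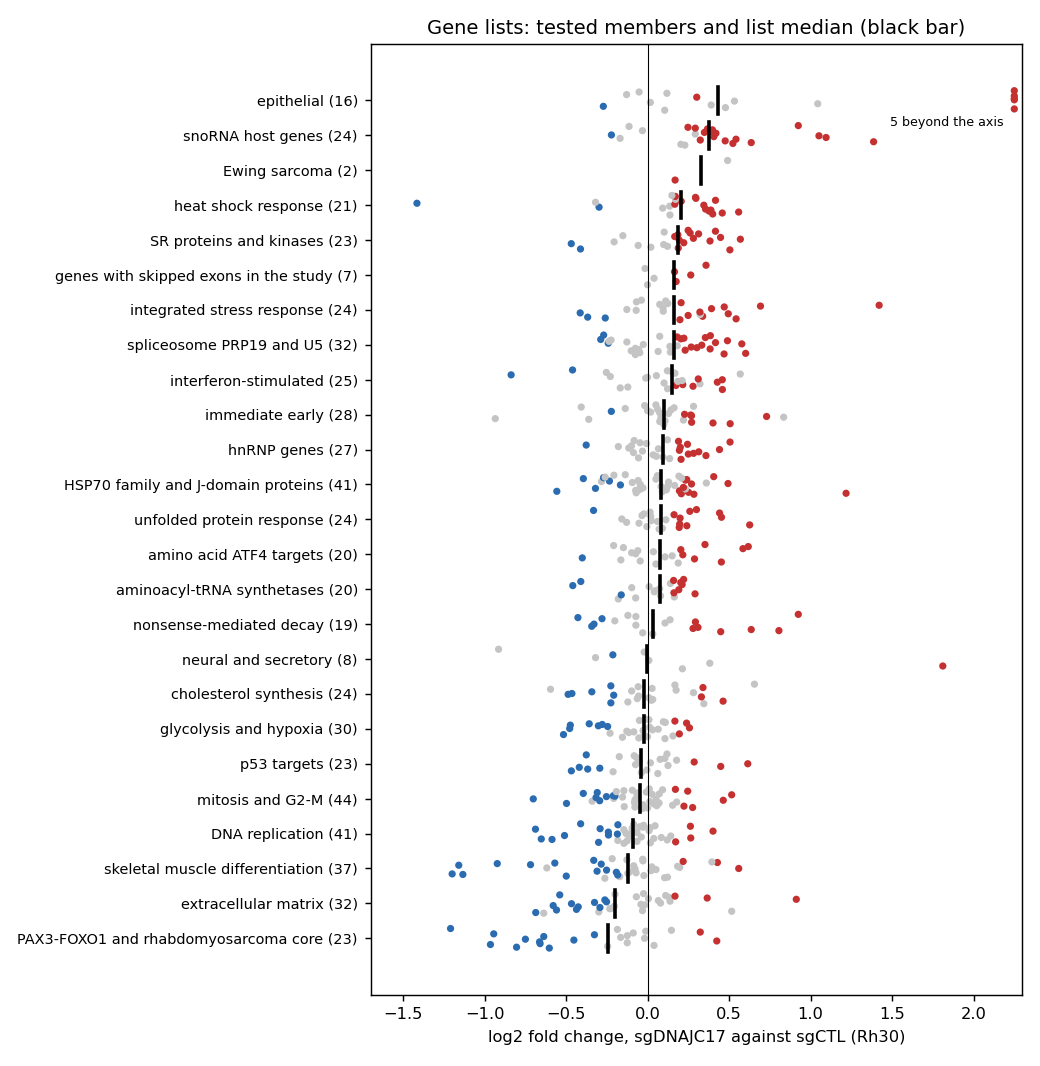
Log2 fold changes of the tested members of each of the 25 gene lists, with a point for each gene, sgDNAJC17 minus sgCTL, red for genes that rose, blue for genes that fell, grey for the rest, and a bar at each list's median. The 5 epithelial genes that rose by 2-fold are drawn at the right edge of the axis. The medians run from -0.25 for the PAX3-FOXO1 list to 0.43 for the epithelial list, with 0.38 for the snoRNA hosts, and no test was made across a list.

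The fold change of protein-coding genes varied with their number of exons. Over 12460 tested protein-coding genes that are not read-through genes, the median number of merged exons was 11, against 8 for the 2241 that rose and 17 for the 2358 that fell. The median log2 fold change ran from 0.13 for 298 genes of 1 exon to 0.0392 at 9 to 12 exons, -0.0793 at 17 to 24 and -0.30 for 343 genes of over 40 exons, of which 57.7% fell and 2.33% rose. In sgDNAJC17 replicates A, B and C taken apart, the median of genes over 40 exons was -0.183, -0.358 and -0.336, so all 3 libraries gave the same order at the ends. The medians are descriptions, since genes share libraries and are not replicates.

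GC content and exonic length moved with the same split. Median GC was 43.1% for genes that rose and 55.9% for those that fell, and median exonic length 4040 and 6511.5 bases. From the lowest to the highest of 5 equal classes of genes by GC the median log2 fold change went from 0.124 to -0.202, and by length from 0.111 to -0.125. Within each GC class, genes of at most 8 exons lay above genes of more than 24 exons, by 0.228 against -0.0667 in the lowest class and by -0.0896 against -0.433 in the highest. After a correction of each library for GC and length the median was 0.101 for 1 exon and -0.157 for over 40 exons, in place of 0.13 and -0.30. How far library preparation differs by GC or length between the groups was not tested.

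**Figure D5:**
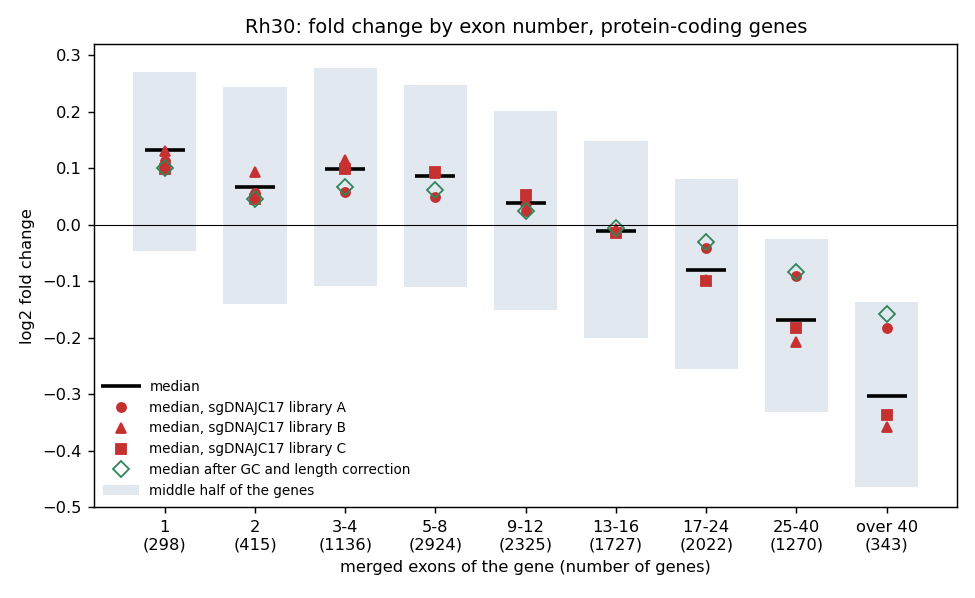
Median log2 fold change of protein-coding genes, sgDNAJC17 minus sgCTL, by the number of merged exons of the gene, as counted and after correction for GC content and exonic length, with the median in each sgDNAJC17 library and a shaded band from the lower to the upper quartile. The median falls from 0.13 at 1 exon to -0.30 over 40 exons, and to -0.157 after the correction.

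Whether Rh30 responded otherwise than ES8 was tested in a fit over the 12 parental libraries, as the difference of the 2 knockdown effects. Of 18899 genes 1848 differed (9.78%), 989 with a higher and 859 with a lower change in Rh30. The 5 with the smallest p were KRT8, FXYD6, ADGRA1, SEMA6B and KRT18. FXYD6 averaged 58.5 CPM with sgCTL and 54.4 with sgDNAJC17 in ES8, against its fall in Rh30 (difference -1.94, adjusted p = 4.42e-06), SEMA6B averaged 65.0 and 71.1 CPM in ES8 (difference -1.63, adjusted p = 2e-06) and ADGRA1 11.2 and 13.5 CPM (difference -1.88, adjusted p = 4.42e-06). KRT8, for which the source of the transcripts in Rh30 was not tested, averaged 11.4 and 11.6 CPM in ES8 and KRT18 23.4 and 23.4 CPM. HSPE1-MOB4 went from 0.408 to 3.53 CPM in ES8, with a difference of -0.01 (adjusted p = 1), and SNHG17 from 30.9 to 57.6 CPM (difference 0.15, adjusted p = 0.455), and DNAJC17 itself from 12.4 to 1.69 CPM.

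The ΔRRM libraries are given beside the others as a description with no test. None of them received sgCTL, so levels there do not separate an effect of the cDNA on the knockdown from other differences of that line. Several of the largest rises were lower there: PPP1R15A averaged 53.3 CPM against 122 with sgDNAJC17 and 45.6 with sgCTL, DKK1 16.3 against 33.5 and 16.5, GADD45B 27.5 against 57.5 and 32.9 and SNHG17 26.9 against 44.2 and 21.3. Among the falls, FXYD6 averaged 3.77 CPM against 0.825 and 3.48, TMCC3 4.3 against 1.35 and 3.58, and MYMX 20.4 against 10.7 and 23.96. Other genes stayed near the sgDNAJC17 level or moved past it, FGFR4 at 306 CPM against 295 and 467, CXCL8 at 21.0 against 10.2 and 3.56, GAS5 at 151 against 99.1 and 63.8, and ZFAS1 at 63.2 against 39.3 and 20.7. IGLC2 stood above both at 56.2 CPM against 12.5 and 32.4.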

How the data were processed

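RNA of 18 libraries was made from poly-A RNA with the NEBNext Ultra kit, and 6 of them are compared here with 3 ΔRRM and 6 ES8 libraries beside them. The authors deposited raw counts per gene for each library. The submitters' processing notes name GRCh38, Trimmomatic 0.36, STAR 2.5.2b and featureCounts (Subread 1.5.2), and of 19040 protein-coding genes 85.35% start within 1 kb of their GRCh38 position against 4.12% of 19583 for GRCh37, which the study's methods name. Strand in counting is not given in the sources used here.

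The deposited counts were tested in edgeR 4.0.16 (R 4.3.3, limma 3.58.1) with TMM normalization, the filterByExpr filter and the quasi-likelihood test on the 6 libraries, with Benjamini-Hochberg adjustment over 15391 genes of 57500 in the table. The biological coefficient of variation was 6.842%. A gene rose or fell at an adjusted p under 0.05, and by 2-fold where so stated. The test was checked on simulated data. Named genes were the targeted gene and neighbours within 50 kb, the 12 protein-coding genes a direction with the largest 2-fold changes at a mean of at least 100 counts and separate groups, 5 non-coding genes a direction at 30 counts, up to 8 members a list, and the 5 smallest p-values of the difference from ES8. Some named genes are not reported here. The members and lists were chosen with earlier results of these data known. Figures used matplotlib 3.10.9. DESeq2 1.42.0 and the other alternatives are given in the closing section.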

Additional observations from a re-analysis of the deposited data

Results flagged for a closer look

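Beside the 1848 genes whose response differed between the lines, genes named in the report stand apart in the difference itself (Rh30 minus ES8, log2 scale, edgeR interaction over 12 parental libraries, adjusted p under 0.05). Those of the epithelial list had the largest differences: TFF1 6.189, CDH1 5.236, KRT19 4.081, KRT18 3.661 and KRT8 3.473. KRT19, CDH1 and TFF1 were below 0.2 CPM in both ES8 groups and near 0 in Rh30 with sgCTL. They passed the filter only through the Rh30 sgDNAJC17 group and had to differ, so their rank is a description. Whether these transcripts came from Rh30 or from other cells in the cultures was not tested, so they are not shown to be a response of Rh30. The response of DNAJC17 itself differed by 0.6766, the fall being smaller in Rh30.

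Among genes that fell in Rh30 the difference was -2.057 for ABTB3, -1.938 for FXYD6, -1.882 for ADGRA1, -1.627 for SEMA6B, -1.294 for SEMA6A, -1.234 for KIAA1671, -1.178 for CEP170B, -1.01 for TMCC3 and -0.9053 for MCF2L. In the rhabdomyosarcoma and muscle lists it was -1.152 for SOX8, -0.8326 for GLI1, -0.6217 for TNNT1 and -0.552 for IGF2, and 0.4636 for TNNI1, and for CEROX1, next to SOX8, it was -0.7525.

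Among the stress, amino acid and chaperone genes it was 0.3822 for PPP1R15A, 0.8431 for SLC7A11, 0.4008 for ASNS, 0.5559 for FARSB, -0.6315 for DDIT4, -0.3956 for PCK2, 0.4872 for HSPD1, 0.431 for CHORDC1, 0.4116 for HSP90AA1, -0.5179 for DNAJB5 and -1.646 for HSPA1A. Among splicing genes it was -0.6473 for PRPF3, which moved further in ES8, 0.5215 for BCAS2, 0.4502 for SRSF11 and -0.3647 for HNRNPUL2.

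For the other named genes the difference was 0.9096 for FOSL1, 0.4049 for CCN1, 0.7906 for NR1D1, 0.5859 for SETD4, 0.4874 for RSRP1, 0.7061 for PLK2, 0.5111 for GADD45B, 0.6175 for EBP, -0.7026 for E2F2, 0.4587 for SNHG1 and 0.8045 for ENSG00000264577.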

How the results depend on the processing

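DNAJC17 was called lower under each alternative tried, at -2.26 to -2.07 on the log2 scale. Of genes changed 2-fold, 118 rose and 121 fell, against 62 higher with DESeq2, 188 higher without a filter on low counts, 48 and 75 with at least 10 counts in every library, and 67 and 78 at an adjusted p under 0.01. A stricter filter tests fewer genes. Leaving out a library in turn gave 104 to 149 higher and 102 to 193 lower (193 without sgDNAJC17 replicate A), and at adjusted p alone 1497 to 3190 higher and 1569 to 3310 lower, with 1497 and 1569 without sgDNAJC17 replicate B, 1539 and 1643 without sgCTL replicate A, and 3190 and 3310 without sgDNAJC17 replicate A. Scaling by library totals moved the median of all genes by -0.060 and the split at adjusted p alone to 1714 higher and 3207 lower. The difference from ES8 gave 1009 to 2515 genes, lowest without ES8 sgCTL replicate C, and 1015, 1052, 1130 and 1149 without ES8 sgCTL replicate A, Rh30 sgCTL replicate A, Rh30 sgDNAJC17 replicate C and B.

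Of named genes, C15orf62 ranged from -0.0115 to 0.54 and SNHG4 from -0.0916 to 0.0361 when a library was left out, and neither passed a test. Of 75 list values (the median and the 2 counts of each of 25 lists), 37 moved with library totals, 18 with the replicate block, 23, 19 and 18 without sgCTL replicate A, B or C, and 10, 19 and 13 without sgDNAJC17 replicate A, B or C, counts by over 1.5 times and medians by over the spread between replicates. The list medians that changed sign were mitosis (0.000624 without sgDNAJC17 replicate A), cholesterol (0.00121 without the same library), neural and secretory (0.0277 without sgDNAJC17 replicate B, 0.00134 without sgCTL replicate A) and nonsense-mediated decay (-0.0291 with library totals, -0.0133 without sgDNAJC17 replicate A, -0.00721 without sgCTL replicate C). The cause was not tested. Of named genes 14 changed a call or a sign under any alternative, CD99, SNHG19 and MAPKAP1 most often (9, 8 and 7 alternatives), and CLDN4 only with the GC and length correction (adjusted p = 0.0513).

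Over all genes, deviations of libraries with the same letter correlated at 0.203, 0.072 and 0.0975 for A, B and C. The labels tie the letters to no shared culture or day, and the main fit did not take them as pairs. Every library correlated best with its own letter (highest between letters 0.0434), and more so at a mean of at least 100 counts (0.577, 0.287 and 0.348, between letters at most 0.202) or 1000 (0.816, 0.533 and 0.567, at most 0.396). At a mean of at least 5000 counts it was 0.905, 0.701 and 0.707 (at most 0.549). This link between libraries comes from the data and not from the design. A fit with a replicate block gave 130 higher and 137 lower at 2-fold, 3621 and 3614 at adjusted p alone, DNAJC17 at -2.19 and 2307 genes for the difference from ES8. Depth limits genes of few counts, among them the epithelial markers and snoRNAs.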
